A study of Mus musculus with 4 samples.

Results

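The genes described here are the fibroblast growth factor (FGF) ligands, their receptors and the feedback targets of the pathway, in E11.5 mouse forelimb buds with and without Smarcc1 in the mesenchyme. The protein made from Smarcc1, BAF155, is a scaffold of the BAF complex, which remodels chromatin. The members were a list of 42 gene names, matched to the rows of the deposited expression table through Ensembl identifiers, and 41 of them had a row among 35689 genes. Spry3 was the member without a matched identifier. Knockout embryos were PrxCre/+;Smarcc1c/c, homozygous for a conditional Smarcc1 allele and carrying PrxCre, which is active in limb bud mesenchyme and not in the overlying ectoderm. Control embryos were Prx+/+;Smarcc1c/c and carried the same homozygous conditional allele without Cre. Each of the 4 libraries came from the left and right forelimb buds of 1 embryo, with 1 embryo of 40 somites and 1 of 39 somites in each genotype, so that n = 2 per genotype. Values below are given in that order of stage.

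FGFs from the apical ectodermal ridge, the epithelial rim of the limb bud, keep the distal mesenchyme growing, while Fgf10 from the mesenchyme maintains the ridge. The ligands bind FGF receptor tyrosine kinases together with heparan sulfate, and signal largely through RAS and ERK. ERK activity raises transcription of the ETS factors Etv4 and Etv5 and of inhibitors such as Dusp6 and the Sprouty genes, which hold the pathway in check and serve as readouts of it. The ridge lies outside the domain of PrxCre, so that its cells are expected to keep Smarcc1. The ligand values here come from whole forelimb buds and not from ridge cells alone.

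Among the FGF genes, Fgf8, the main ridge ligand, and Fgf13, an intracellular member of the family, fell in knockout buds. Fgf18 missed the threshold by a small margin, and the response genes stood within 1.5-fold of the control in either direction, with none past the threshold. The values are in TPM, the share of a library's transcripts that belong to a gene, corrected for transcript length. Genes that reached 1 TPM in 2 or more libraries were tested on a log2(TPM + 1) scale with limma, and called at a Benjamini-Hochberg adjusted p under 0.05 over all 12809 genes tested. The 26 members tested included 2 that fell and 0 that rose, while 24 did not pass. Over all genes tested 1.3% were called, 0.492% of them lower and 0.812% higher in the knockout. With somite stage added to the model 5 members were lower and 0 higher, against 2.08% of all genes lower and 2.08% higher. At an unadjusted p under 0.05 the members counted 8 lower and 2 higher, against 6.89% and 6.78% of all genes.

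Smarcc1 itself had 46.2 and 38.4 TPM in the knockout libraries against 112.0 and 119.6 TPM in control buds, lower in both libraries labelled knockout. The number of genes with at least 1 TPM lay between 12555 and 12577 in the knockout libraries and between 12563 and 12689 in control buds. TPM keeps no depth, so the number of reads behind a value is unknown. The 2 embryos of 40 somites had 0.0498 TPM (knockout) and 0.013 TPM (control) of the Y-linked gene Ddx3y, and those of 39 somites had 28.3 TPM (knockout) and 30.2 TPM (control), so sex ran with somite stage and was balanced between genotypes. Ddx3y lies outside the rule for naming genes, which set sex-linked genes aside, and was chosen after its values were seen. Among markers of blood and endothelium, 0 of 10 for blood and 0 of 7 for endothelium passed. At an unadjusted p under 0.05 in limma 2 blood markers were higher and 1 lower, against 6.78% and 6.89% of all genes tested, and 0 endothelium markers. Blood markers summed to 12598.1 and 11985.7 TPM in knockout buds against 9931.5 and 11312.7 TPM in control buds, without overlap. Endothelium markers summed to 59.3 and 84.7 TPM in knockout buds against 44.4 and 83.6 TPM in control buds, with overlapping groups. Modelling somite stage called 1 blood gene, Hba-a1, higher, although its reads may be shared with the near-identical Hba-a2. In whole buds, fewer cells of a type and less RNA per cell cannot be told apart.

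The promoters of 4 members are shown because 2 of these genes, Fgf18 and Fgf13, had the lowest knockout levels relative to control of all tested members, while Fgfrl1 and Dusp6 hold the letters of a motif bound by the ETS factors that FGF signalling induces. Each line gives the 250 bases before a RefSeq transcription start (GRCm38.p6, the mm10 build), written 5′ to 3′ on the strand of the gene. Capitals mark the ETS motif, spelled CCGGAAG, the PEA3 motif of the same factors, spelled AGGAAG, and the GC box bound by Sp factors, spelled GGGCGG. Each was searched on both strands, so that a match on the other strand reads as the reverse complement.
Fgf18, chr11:33147401-33147650, minus strand: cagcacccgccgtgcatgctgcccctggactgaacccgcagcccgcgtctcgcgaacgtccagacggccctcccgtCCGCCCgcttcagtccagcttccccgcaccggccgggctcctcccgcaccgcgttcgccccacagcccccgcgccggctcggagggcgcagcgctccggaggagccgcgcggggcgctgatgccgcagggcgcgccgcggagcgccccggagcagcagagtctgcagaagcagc
Fgf13, chrX:59134437-59134686, minus strand: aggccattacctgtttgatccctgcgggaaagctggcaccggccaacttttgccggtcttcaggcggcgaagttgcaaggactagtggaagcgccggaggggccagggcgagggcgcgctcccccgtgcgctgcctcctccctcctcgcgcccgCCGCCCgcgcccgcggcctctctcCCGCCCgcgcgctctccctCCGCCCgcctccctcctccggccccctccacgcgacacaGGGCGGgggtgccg
Fgfrl1, chr5:108693979-108694228, plus strand: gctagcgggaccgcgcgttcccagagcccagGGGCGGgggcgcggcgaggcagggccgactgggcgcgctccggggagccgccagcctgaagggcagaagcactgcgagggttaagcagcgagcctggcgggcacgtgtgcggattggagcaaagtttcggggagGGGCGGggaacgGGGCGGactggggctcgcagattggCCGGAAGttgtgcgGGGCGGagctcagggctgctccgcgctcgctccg
Dusp6, chr10:99262981-99263230, plus strand: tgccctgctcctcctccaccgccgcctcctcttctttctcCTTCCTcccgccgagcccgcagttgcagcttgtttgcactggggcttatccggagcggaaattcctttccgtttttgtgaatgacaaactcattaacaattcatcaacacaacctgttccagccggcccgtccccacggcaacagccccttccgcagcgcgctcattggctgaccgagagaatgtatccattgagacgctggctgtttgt

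The table of promoters held 40 starts for 31 of the 42 members. On both strands, CCGGAAG was found at 1 of these starts, in Fgfrl1, and at 6.9% of 32817 promoter windows of the same length. AGGAAG, which shares no match with CCGGAAG because the letters differ, was found at 8 of the 40 starts and at 29.48% of all windows. The 8 were those of Dusp6, Etv1, Fgf12, Fgf3, Fgfr2, Fgfr4, Flrt3 and Spred2. For both motifs the share of member starts was below that of all windows. The GC box was found at 24 of the 40 starts and at 32.72% of all windows, but the member windows were also richer in G and C, with a median of 61.6% against 52.4%. The GLI motif GACCACCCA was in 0 member windows and in 0.23% of all windows. Of the 4 starts listed for Fgf13, the one shown coincides with a GENCODE transcript start, and a TPM for the whole gene does not say which start was used.

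**Figure D1:**
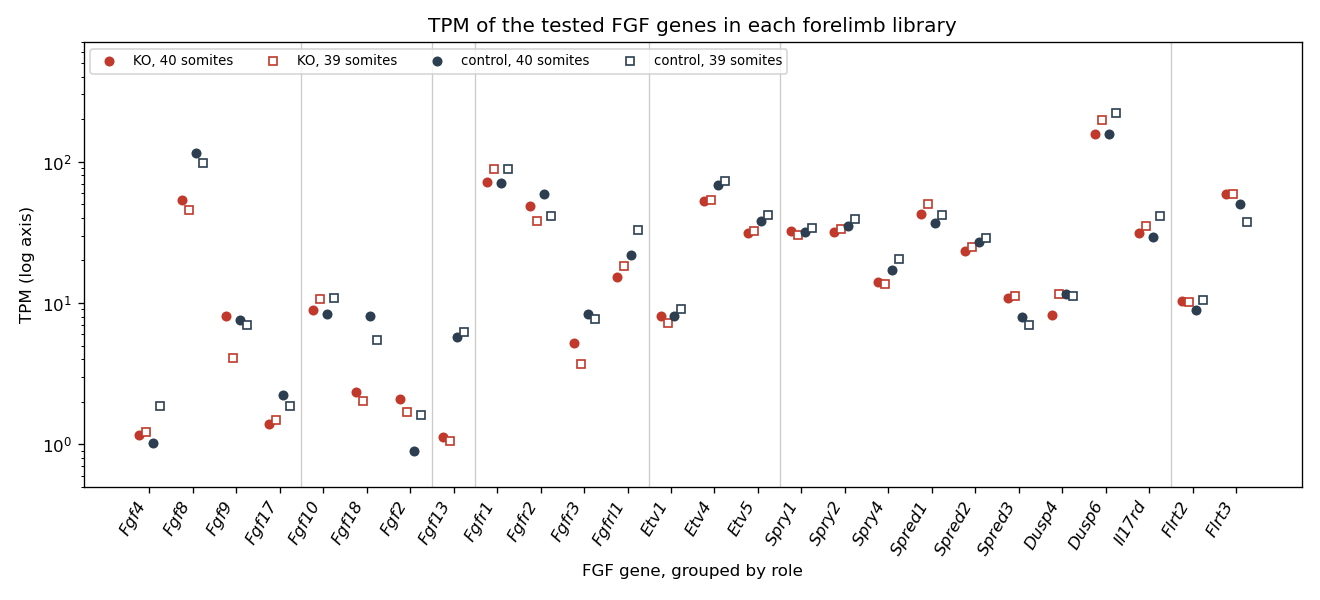
TPM (log axis) of the 26 tested FGF genes in each library, grouped by role from ridge ligands on the left to FLRT genes on the right, with knockout in red, control in dark blue, circles for 40 somites and squares for 39 somites. Fgf8, Fgf18 and Fgf13 show both knockout libraries well below both controls, while Dusp6, Fgfr1 and Fgf10 show the genotypes overlapping.

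Fgf8 (chromosome 19, 45736798 to 45742915, mm10) is the ligand made along the whole ridge. Its level was 53.7 and 45.6 TPM in the knockout libraries against 115.8 and 98.2 TPM in control buds. Both knockout libraries were below both controls, at 0.464 of the control mean. In limma this was a log2 fold change of -1.09 ± 0.14 (SE, 2 embryos per genotype) at a Benjamini-Hochberg adjusted p of 0.0283, and the difference was -1.09 at each somite stage taken alone. The call ended under median-ratio and quantile scaling (limma adjusted p of 0.0669 and 0.0747). It also ended with no filter on low values (limma adjusted p of 0.155), where 0 of 20946 genes were called. Without control replicate 1 or 2 the call ended as well, at a log2 fold change of -0.974 and -1.21.

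The other ridge ligands were much less abundant and did not pass. Fgf9, which also acts from ectoderm on mesenchyme, had 8.06 and 4.11 TPM in the knockout libraries and 7.57 and 6.95 TPM in control buds. The low value belonged to the knockout embryo of 39 somites alone, and the groups overlapped. Fgf17, a close relative of Fgf8, had 1.38 and 1.48 TPM in knockout buds against 2.24 and 1.87 TPM in control buds. Fgf4, a ligand of the posterior ridge, had 1.16 and 1.22 TPM in knockout buds against 1.02 and 1.88 TPM in control buds. The knockout libraries were below both controls for Fgf17 and inside their range for Fgf4. The 95% intervals of the log2 fold change ran from -0.94 to 0.38 for Fgf9, from -0.73 to 0.07 for Fgf17 and from -0.67 to 0.39 for Fgf4, so falls of moderate size were not detectable for them.

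Fgf8 made up most of the secreted ligand transcripts, and most of the difference in the pool of ligands between genotypes lay in Fgf8. The 18 secreted ligands summed to 80.1 and 68.9 TPM in the knockout libraries against 146.7 and 128.6 TPM in control buds. Fgf8 was 67.0% and 66.1% of that sum in knockout buds and 78.9% and 76.4% in control buds. Without Fgf8 the sum was 26.4 and 23.4 TPM in knockout buds against 31.0 and 30.4 TPM in control buds. The groups did not overlap in any of these 3 quantities. These sums are descriptions, since in an exact two-sided permutation test the smallest p that 4 libraries allow is 2 of 6 arrangements.

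**Figure D2:**
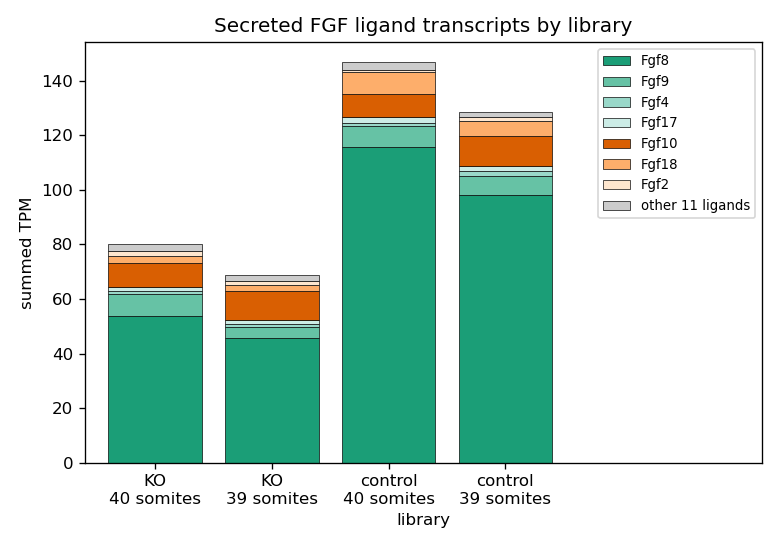
Summed TPM of the 18 secreted FGF ligands in each library (stacked bars, knockout libraries on the left), with ridge ligands in green, mesenchymal ligands in orange and the other 11 ligands, Fgf7 among them, in grey. The knockout bars reach 80.1 and 68.9 TPM and the control bars 146.7 and 128.6 TPM, and most of the difference lies in Fgf8.

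Surface ectoderm markers had lower summed values in the knockout than in the control at each stage, and Fgf8 was lower relative to their sum. The summed level of 16 markers, among them adhesion genes and keratins, was 544.6 and 357.7 TPM in the knockout libraries against 692.1 and 471.2 TPM in control buds, with overlapping groups. Of the 16 markers 15 had a log2 fold change below 0, none was at 0 TPM, and 0 passed. The 1 with a log2 fold change above 0 was Tfap2c, named after its value was seen. At an unadjusted p under 0.05 in limma 6 markers were lower and 1 higher, against 6.89% and 6.78% of all genes tested. Adding somite stage to the model called 5 of the 16 lower, namely the tight junction genes Cldn6 and Cldn7, the transcription factor gene Grhl3, the desmosome gene Perp and the cadherin gene Cdh3. Their knockout means lay between 0.551 and 0.701 of the control means. The part of the markers in the Fgf8 result was not tested, but per 100 TPM of all 16 markers Fgf8 stood at 9.86 and 12.7 TPM in knockout buds against 16.7 and 20.8 TPM in control buds. The knockout mean of that ratio was 0.602 of the control mean, and both knockout libraries were below both controls. The same ratio for Fgf9 was 1.48 and 1.15 in knockout buds against 1.09 and 1.48 in control buds, with a knockout mean 1.02 times the control mean. For Fgf4 it was 0.213 and 0.342 in knockout buds against 0.147 and 0.399 in control buds. For Fgf17 it was 0.253 and 0.415 in knockout buds against 0.324 and 0.397 in control buds. The groups overlapped for these 3 ligands. All of these ratios depend on which markers are summed. Marker by marker, the knockout mean ran from 0.551 of the control mean for Grhl3 to 1.52 times it for Tfap2c. Krt5, the most abundant marker and named after its values were seen, stood at 0.934. Of 8 ridge transcription factor genes, all tested, 1 fell and 0 rose, and with somite stage in the model 3 were lower and 0 higher. They summed to 97.2 and 64.7 TPM in knockout buds against 139.5 and 107.1 TPM in control buds. The knockout mean of this sum was 0.657 of the control mean, and both knockout libraries were below both controls. Sp6, a zinc finger gene of the ridge, fell, with 9.67 and 7.29 TPM in knockout buds against 26.4 and 21.6 TPM in control buds and a log2 fold change of -1.40 ± 0.18 (limma, Benjamini-Hochberg adjusted p = 0.0283). En1, a homeobox gene of ventral ectoderm, had 3.54 and 2.46 TPM in knockout buds against 9.65 and 7.22 TPM in control buds (limma, Benjamini-Hochberg adjusted p = 0.0589, and 0.0175 with stage). Both knockout libraries lay below both controls for these genes, and their part in the Fgf8 result was not tested. Dlx2, another homeobox gene, had 13.3 and 8.62 TPM in knockout buds against 21.9 and 18.8 TPM in control buds. It missed the threshold without somite stage and met it once stage was modelled (limma, Benjamini-Hochberg adjusted p = 0.146 and 0.0353).

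**Figure D3:**
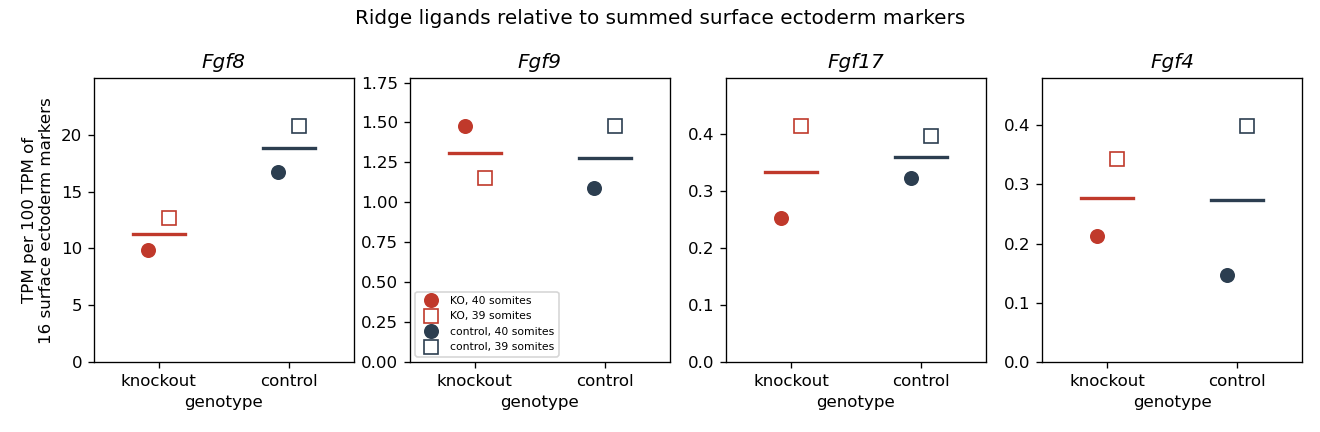
TPM of each ridge ligand per 100 TPM of 16 summed surface ectoderm markers, in knockout (left) and control (right) libraries, with circles for 40 somites, squares for 39 somites and bars at the mean. Fgf8 lies at 9.86 and 12.7 in knockout buds, below 16.7 and 20.8 in control buds, while the genotypes overlap for Fgf9, Fgf17 and Fgf4.

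Among ligands of the mesenchyme, where Smarcc1 was targeted, the genotypes overlapped for Fgf10 and lay apart for Fgf18. Fgf10 (chromosome 13, 118669791 to 118792115), the mesenchymal signal to the ridge, had 8.93 and 10.6 TPM in knockout buds against 8.34 and 10.8 TPM in control buds. The 2 genotypes overlapped, with the higher value at 39 somites in both. The log2 fold change, 0.03 ± 0.17, came with a 95% interval from -0.39 to 0.44 (limma, Benjamini-Hochberg adjusted p = 0.969), which leaves out a change as large as the one in Fgf8.

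Fgf18 (chromosome 11, 33117430 to 33147400), a ligand known for its part in cartilage and bone development, had 2.36 and 2.03 TPM in knockout buds. The controls had 8.12 and 5.5 TPM, so that both knockout libraries were far below both controls, at 0.323 of the control mean. Its log2 fold change was -1.27 ± 0.20 (limma, Benjamini-Hochberg adjusted p = 0.0519), and it passed with somite stage in the model (0.0242), without the variance trend (0.0474) and with a robust variance (0.0206). It did not pass under median-ratio or quantile scaling (limma adjusted p of 0.0912 and 0.103). It also did not pass with no filter on low values (limma adjusted p of 0.227), where 0 of 20946 genes were called. Nor did it pass with a filter at 5 TPM (0.0569) or a pseudocount of 0.1 or 5 (0.0511 and 0.0618). The log2 fold change was -1.34 and -1.2 without knockout replicate 1 or 2, and -1.03 and -1.51 without control replicate 1 or 2. Fgf2 had 2.09 and 1.68 TPM in knockout buds against 0.897 and 1.61 TPM in control buds, a log2 difference of 0.37 ± 0.21 that missed the threshold (limma, Benjamini-Hochberg adjusted p = 0.536). The exons of Fgf2 overlap those of Nudt6 on the other strand, and reads of the pair cannot be told apart where strand was not used. Fgf7, a mesenchymal ligand for epithelial receptors, stayed between 0.0617 and 0.346 TPM in all libraries and was not tested.

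The other 10 secreted ligands were below the filter and were not tested. The highest single value belonged to Fgf1, with 0.607 and 0.521 TPM in knockout buds and 1.12 and 0.335 TPM in control buds. Fgf23, an endocrine ligand made by bone cells, had 0.436 and 0.194 TPM in knockout buds against 0.0403 and 0.0647 TPM in control buds. The genotypes did not overlap for Fgf23, at levels of a fraction of 1 TPM where no test was made. The value of 1.12 TPM came from 1 control library, and Fgf5, which reached 0.747 TPM, was above Fgf1 in both libraries of 39 somites. The highest values of the others were 0.381 TPM for Fgf15 and 0.267 TPM for Fgf3. Fgf6, Fgf16, Fgf20, Fgf21 and Fgf22 were listed at 0 in at least 1 library each and never passed 0.225 TPM.

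Fgf13 (chromosome X, 59062145 to 59568071) had the largest fall of all tested members. It belongs with Fgf11, Fgf12 and Fgf14 to the FGF homologous factors, which lack a secretion signal, do not act as classical ligands and are known as partners of voltage-gated sodium channels in neurons. Fgf13 stood at 1.13 and 1.06 TPM in knockout buds against 5.72 and 6.27 TPM in control buds. Replicates within a genotype were close together, and the knockout mean was 0.182 of the control mean. The log2 fold change was -1.74 ± 0.15 (limma, Benjamini-Hochberg adjusted p = 0.0117). The call ended with no filter on low values (limma adjusted p of 0.111), where 0 of 20946 genes were called. It also ended without control replicate 2, at a log2 fold change of -1.68. Markers of neural crest and axons summed to 16.4 and 17.1 TPM in knockout buds against 18.5 and 21.4 TPM in control buds. None of the 5 tested markers of the 8 passed, 0 of them at an unadjusted p under 0.05 in limma, and their part in the fall of Fgf13 was not tested. Of the relatives, Fgf11 had 1.11 and 0.898 TPM in knockout buds against 0.991 and 0.793 TPM in control buds, while Fgf12 and Fgf14 stayed at or below 0.351 TPM. These 3 were not tested.

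The summed level of the receptors was slightly lower in knockout buds, at 0.931 of the control mean, and the members differed in how far apart the genotypes lay. The 4 receptors with a kinase domain summed to 127.5 and 131.3 TPM in knockout buds against 139.2 and 138.7 TPM in control buds. Fgfr1, the main receptor of limb mesenchyme, had 72.2 and 88.9 TPM in knockout buds against 70.6 and 89.3 TPM in control buds, matched almost exactly stage by stage. The difference was 0.01 ± 0.16 on the log2 scale, with a 95% interval from -0.38 to 0.41, and it changed sign under quantile normalization. Fgfr2, of which ectoderm and mesenchyme use different splice forms, had 48.8 and 38.0 TPM in knockout buds against 59.6 and 41.0 TPM in control buds. Within each genotype Fgfr2 was higher at 40 somites, as the ectoderm markers were. Per 100 TPM of those markers Fgfr2 stood at 8.96 and 10.6 TPM in knockout buds against 8.6 and 8.7 TPM in control buds, and the gene-level value does not separate the splice forms. Its exons overlap those of Ctbp2 on the same strand.

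Fgfr3 and the decoy-like receptor Fgfrl1 were lower in both knockout libraries than in both controls, without passing over all genes. Fgfr3, known for restraining growth of cartilage, had 5.25 and 3.7 TPM in knockout buds against 8.33 and 7.68 TPM in control buds. On the log2 scale it differed by -0.73 ± 0.18 (limma, Benjamini-Hochberg adjusted p = 0.155, and 0.055 with somite stage in the model). With 1 library left out the difference lay between -0.936 and -0.525. Fgfrl1 (chromosome 5, 108692382 to 108706924), which binds FGFs but has no tyrosine kinase domain, had 15.3 and 18.4 TPM in knockout buds against 22.0 and 32.9 TPM in control buds. The controls differed from each other by more than the knockouts did. The log2 fold change stood at -0.65 ± 0.21 (limma, Benjamini-Hochberg adjusted p = 0.248), and the threshold was met once somite stage was modelled (0.0474). With 1 library left out it lay between -0.93 and -0.368. Fgfr4, with 1.15 and 0.635 TPM in knockout buds and 0.761 and 0.702 TPM in control buds, was below the filter.

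**Figure D4:**
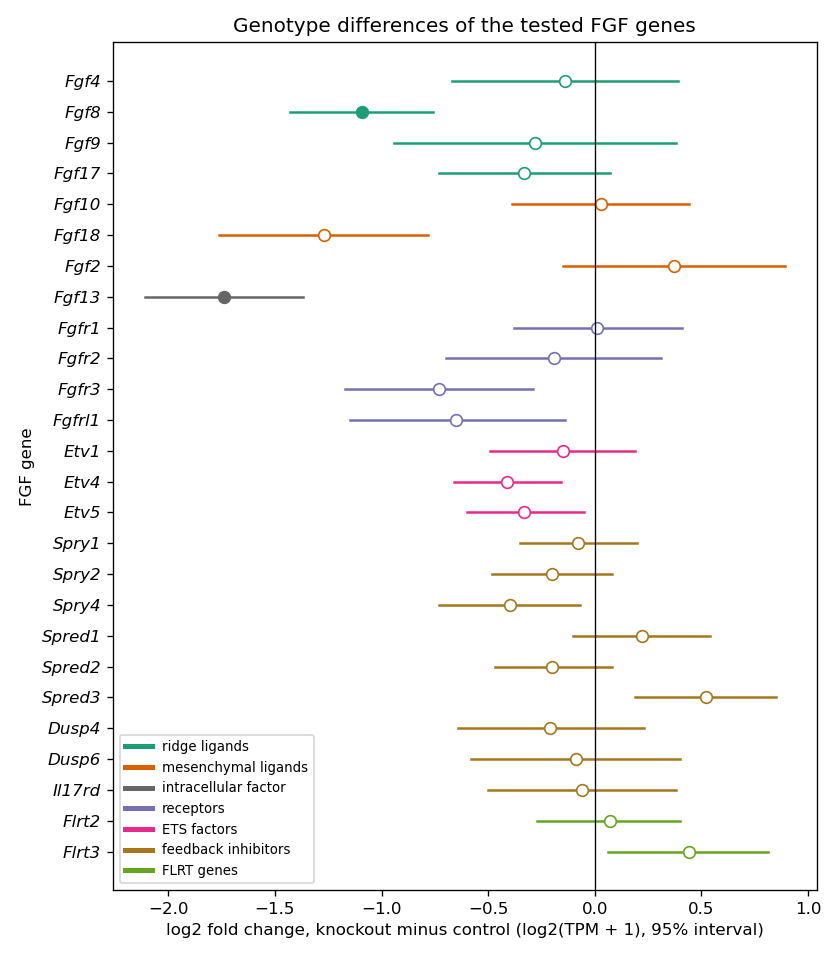
Log2 fold change of each tested FGF gene, knockout minus control on the log2(TPM + 1) scale, with its 95% interval from limma; filled points passed at an adjusted p under 0.05 over all genes, and colours give the role. Fgf13 (-1.74), Fgf18 (-1.27) and Fgf8 (-1.09) lie furthest from 0, and only Fgf13 and Fgf8 are filled.

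The response genes were set beside the ligands, since transcription of many of them is known to follow FGF signalling. Of the 14 response genes tested 0 rose and 0 fell. At an unadjusted p under 0.05 in limma 3 of them were lower and 2 higher, against 6.89% and 6.78% of all genes tested. Adding somite stage to the model called 1 of them, Etv4, lower. The response genes summed to 511.6 and 569.2 TPM in knockout buds against 527.1 and 619.7 TPM in control buds. Their median log2 fold change was -0.12, next to -0.30 for the 4 ridge ligands, 0.03 for the 3 mesenchymal ligands tested, -0.42 for the 4 receptors tested and 0.008 for all genes tested. The median of the response genes was -0.192 without knockout replicate 2, -0.0515 without knockout replicate 1, -0.231 without control replicate 1 and -0.0467 without control replicate 2. That of the ridge ligands was -0.494 without knockout replicate 1, and that of the mesenchymal ligands changed sign, between -0.142 and 0.199, with 1 library left out. Both knockout libraries were below both controls for 12 of the 26 tested members and above them for 4, against 21.2% and 22.7% of all genes tested.

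The ETS factors were each lower in both knockout libraries than in both controls. Etv4 (chromosome 11, 101769742 to 101785371), a target of ridge FGF in distal mesenchyme, had 52.9 and 53.6 TPM in knockout buds against 68.9 and 73.1 TPM in control buds. The knockout level was 0.75 of the control, and each genotype was tight. Its log2 fold change was -0.41 ± 0.10 (limma, Benjamini-Hochberg adjusted p = 0.162, and 0.049 with somite stage in the model). Etv5, its partner with the same role, had 31.1 and 32.6 TPM in knockout buds against 38.2 and 42.2 TPM in control buds. The log2 difference of Etv5 was -0.33 ± 0.11 (limma, Benjamini-Hochberg adjusted p = 0.283). Etv1, of the same PEA3 group, had 8.04 and 7.2 TPM in knockout buds against 8.07 and 9.06 TPM in control buds and did not pass (0.733), with almost equal values at 40 somites.

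Markers of limb mesenchyme, the tissue in which these ETS factors respond to the ridge, also differed between the genotypes. Of 12 markers, all tested and none at 0 TPM, 3 fell and 1 rose, while with somite stage in the model 4 were lower and 2 higher. Their summed level was 796.3 and 885.4 TPM in knockout buds against 864.5 and 1086.0 TPM in control buds, with overlapping groups. Lhx2 and Lhx9, LIM homeobox genes of distal mesenchyme, fell to 0.232 and 0.378 of the control mean (limma, Benjamini-Hochberg adjusted p = 0.0211 and 0.0416). Msx1, a homeobox gene, fell to 0.288 of it (adjusted p = 0.0117), and Pdgfra, a receptor gene for platelet-derived growth factor, rose to 2.05 times the control mean (adjusted p = 0.0165). With stage Prrx1, a homeobox gene of limb mesenchyme, was also lower, at 0.693 of the control mean, and Lmx1b, of dorsal mesenchyme, higher, at 1.72 times it. The part of these markers in the values of the FGF genes was not tested.

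Among the feedback inhibitors, the Sprouty genes, which block RAS and ERK activation, were level or lower. Spry4 had 14.1 and 13.7 TPM in knockout buds against 17.1 and 20.5 TPM in control buds, with a log2 fold change of -0.40 ± 0.14 (limma, Benjamini-Hochberg adjusted p = 0.27). Spry2 had 31.6 and 33.2 TPM in knockout buds against 35.3 and 39.6 TPM in control buds. Both genes were lower in the 2 knockout libraries than in either control and neither passed. Spry1 had 32.2 and 30.2 TPM in knockout buds against 31.6 and 34.2 TPM in control buds, with overlapping groups.

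The Spred genes, which restrain RAS, did not share a direction. Spred3 had 10.9 and 11.3 TPM in knockout buds against 7.98 and 6.98 TPM in control buds, a log2 fold change of 0.52 ± 0.14 (limma, Benjamini-Hochberg adjusted p = 0.175). Spred1 had 42.4 and 49.9 TPM in knockout buds against 37.1 and 41.9 TPM in control buds. Both stood above the controls in each knockout library, whereas Spred2, with 23.4 and 25.0 TPM in knockout buds against 27.1 and 28.7 TPM in control buds, stood below. None of the 3 passed.

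Dusp6, the ERK phosphatase that is the most abundant response gene, had 156.3 and 196.6 TPM in knockout buds against 156.1 and 223.1 TPM in control buds. The genotypes overlapped, and within each the embryo of 39 somites was higher. Its log2 fold change was -0.09 ± 0.20, with a 95% interval from -0.58 to 0.40 that leaves out a fall as large as that of Fgf8. Il17rd, a membrane inhibitor of FGF receptors also called Sef, had 31.2 and 35.3 TPM in knockout buds against 29.1 and 41.4 TPM in control buds. Dusp4, a nuclear ERK phosphatase, had 8.19 and 11.6 TPM in knockout buds against 11.6 and 11.2 TPM in control buds. Like Dusp6, both overlapped between the genotypes, with limma Benjamini-Hochberg adjusted p-values of 0.93 for Il17rd and 0.699 for Dusp4.

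Flrt3, a membrane protein gene whose product binds FGF receptors and promotes ERK signalling in Xenopus, was higher in both knockout libraries than in both controls. It had 59.0 and 59.0 TPM in knockout buds against 50.0 and 37.5 TPM in control buds. Its log2 fold change was 0.44 ± 0.15 (limma, Benjamini-Hochberg adjusted p = 0.29), and the spread lay in control buds. Flrt2, of the same family, had 10.3 and 10.1 TPM in knockout buds against 8.96 and 10.5 TPM in control buds.

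Set against Fgf8 itself, Etv4, Etv5 and Dusp6 had higher ratios in knockout buds. Etv4 stood at 0.984 and 1.18 TPM per TPM of Fgf8 in knockout buds against 0.596 and 0.745 in control buds. Etv5 stood at 0.578 and 0.714 in knockout buds against 0.33 and 0.43 in control buds. Dusp6 stood at 2.91 and 4.31 in knockout buds against 1.35 and 2.27 in control buds. The groups did not overlap for these 3 ratios. The ratio of the genotype means was 1.61 for Etv4, 1.7 for Etv5 and 2.0 for Dusp6. The shared denominator moves all of them together, so they are not separate results. Fgf8 stood at 0.464 of the control mean, so any gene with equal levels in both genotypes would also have a higher ratio. The means of Etv4, Etv5 and Dusp6 themselves were 0.75, 0.791 and 0.931 of the control means. The ratios therefore do not show a rise in these genes.

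**Figure D5:**
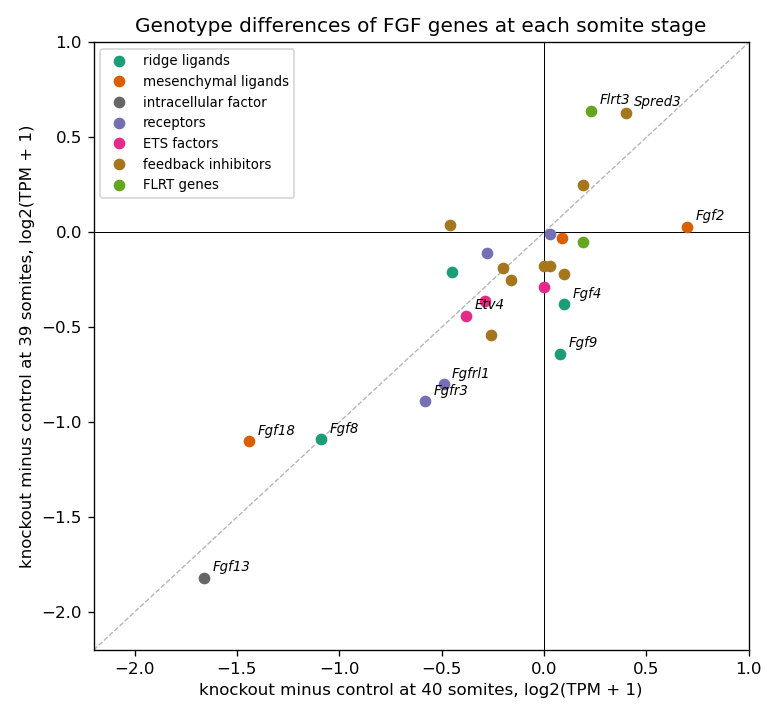
Difference between knockout and control on the log2(TPM + 1) scale at 40 somites (horizontal axis) and at 39 somites (vertical axis), 1 embryo of each genotype per stage, 1 point per tested FGF gene, coloured by role; the dashed line marks equal differences. Fgf8 lies on the line at -1.09, Fgf18 at -1.44 and -1.10 and Fgf13 at -1.66 and -1.82, while Fgf9 lies at 0.08 and -0.64.

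The differences in the leading genes were present at both stages. Fgf13 differed by -1.66 at 40 somites and -1.82 at 39, and Fgf18 by -1.44 and -1.10. Fgfr3 differed by -0.58 and -0.89, Fgfrl1 by -0.49 and -0.80 and Etv4 by -0.38 and -0.44. With 1 embryo per genotype at each stage these differences have no replicate check, and stage cannot be told apart from sex, which ran with it.

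Of 7 genes that link FGF signalling with the Shh and BMP pathways in the limb bud, 1 fell and 0 rose, with or without somite stage. At an unadjusted p under 0.05 in limma 3 were higher and 2 lower, against 6.78% and 6.89% of all genes tested. The 3 were Gli1, Bmp2 and Grem1, named after their values were seen, with log2 fold changes of 0.43, 0.48 and 0.41. The 2 were Shh and Bmp7. Both knockout libraries were above both controls for 4 of the 7 genes and below them for 2, against 22.7% and 21.2% of all genes tested. Ptch1, 1 of the 4 and also named after its values were seen, was nearly level. It had 28.1 and 28.0 TPM in knockout buds against 28.0 and 26.3 TPM in control buds. Shh, the signal of the posterior margin, had 4.59 and 6.38 TPM in knockout buds against 17.5 and 14.6 TPM in control buds (limma, Benjamini-Hochberg adjusted p = 0.0319). Both knockout libraries lay below both controls for Shh.

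None of the signal transduction genes further along the pathway passed. Of 24 genes of signal transduction, such as the adaptor Frs2 and members of the RAS, RAF and MEK families, all 24 were tested and 0 passed, with or without somite stage. None had an unadjusted p under 0.05 in limma, and their log2 fold changes lay between -0.24 and 0.26. The smallest p-values belonged to the adaptor gene Gab1, with 18.6 and 18.0 TPM in knockout buds against 15.2 and 15.2 TPM in control buds, and to Hras, with 53.6 and 52.1 TPM in knockout buds against 57.9 and 62.4 TPM in control buds. Both missed the threshold (limma, Benjamini-Hochberg adjusted p = 0.427 for Gab1 and 0.536 for Hras).

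Of 24 genes of coreceptors and heparan sulfate, 22 were tested, 0 rose and 0 fell. In limma 1 was higher and 2 were lower at an unadjusted p under 0.05, against 6.78% and 6.89% of all genes tested. The higher one was Sdc4, which had the smallest p of the list and was named after its value was seen. It had 18.4 and 20.3 TPM in knockout buds against 13.5 and 12.4 TPM in control buds (limma, Benjamini-Hochberg adjusted p = 0.131, and 0.0605 with stage). Both knockout libraries were above both controls for 8 of the 22 and below them for 5, against 22.7% and 21.2% of all genes tested. With somite stage in the model 2 were lower. Sdc3, which encodes the heparan sulfate proteoglycan syndecan-3, had 9.36 and 12.5 TPM in knockout buds against 17.4 and 24.6 TPM in control buds, and a log2 fold change of -0.88 ± 0.21 (limma, Benjamini-Hochberg adjusted p = 0.143, and 0.0193 with stage). Sulf2, which removes sulfate groups from heparan sulfate, had 78.0 and 93.4 TPM in knockout buds against 105.1 and 122.0 TPM in control buds (limma, Benjamini-Hochberg adjusted p = 0.276, and 0.0474 with stage). Both knockout libraries were below both controls for each. The coreceptors Kl and Klb, used by endocrine FGFs, stayed at or below 0.112 TPM.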

How the data were processed

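RNA from the forelimb bud pairs of 4 embryos was sequenced on a DNBseq platform, per the labels' protocols. The deposited values are TPM, for 35727 Ensembl identifiers, and each column sums to 1000000. Salmon 1.9.0 and mm10 are named in the submitters' processing notes, while how transcripts were chosen and summed is not given in the sources used here. Identifiers were matched to symbols for 99.1%, and values of 38 repeated symbols were summed. One column name carries a letter that the sample's title lacks. Libraries were grouped by the genotype in the labels, and replicates 1 and 2 are the embryos of 40 and 39 somites.

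The 12809 genes that reached 1 TPM in 2 or more libraries were tested as log2(TPM + 1) in limma 3.58.1 (R 4.3.3; lmFit, eBayes with trend), without covariates, with Benjamini-Hochberg adjustment at 0.05. Fold changes on this scale understate those of low genes. The fit was also run on simulated data with independent noise in each library and no effect of stage or sex. That simulation does not check the fit for deviations shared by libraries of the same stage. Alternative fits used a pseudocount of 0.1 or 5, a filter at 5 TPM or none, median-ratio or quantile scaling, a block for somite stage, a variance prior without trend or with robust estimation, and each library left out. Deviations of same-stage libraries from their genotype means correlated across 12809 genes (Pearson 0.25); genes are not independent replicates.

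Values per library are given for members called with or without stage, ridge and mesenchymal ligands, receptors and tested response genes. Other lists name members called with or without stage, or else at most the 2 with the smallest p, and genes outside this rule were picked once their values were known. The members and lists were chosen with earlier results of these data known. Coordinates are from GENCODE M21 (mm10, counted from 1), and promoters from RefSeq, with the shown set picked after the motif search. Exons of 7 tested members overlap another gene, and strand use is not given. The embryos are separate animals, 2 per genotype. In limma the variance of each gene is drawn toward a trend over all genes tested. The SEs, intervals and p-values therefore do not rest on the spread between the 2 embryos alone. The myoblast marker list is not reported here.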

Additional observations from a re-analysis of the deposited data

Results flagged for a closer look

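For 9 tested FGF genes the single knockout embryo stood on opposite sides of the single control embryo at the 2 somite stages. The difference between the stages was not tested, since 1 embryo per genotype and stage leaves no replicate. Stage also cannot be told apart from sex here. The log2 difference at 40 somites minus that at 39 somites was 0.72 for Fgf9, 0.47 for Fgf4, 0.32 for Il17rd, 0.24 for Flrt2, 0.2 for Spry1, 0.18 for Dusp6, 0.12 for Fgf10 and 0.04 for Fgfr1, and it was -0.5 for Dusp4. Fgf9 stood apart at 39 somites (-0.64) and Dusp4 at 40 somites (-0.46), each with a low value in 1 knockout library. Surface ectoderm markers were lowest in that same knockout library of 39 somites, at 357.7 TPM, and its part in the Fgf9 value was not tested.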

How the results depend on the processing

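The number of members called lower was 2, and it was 1 under median-ratio scaling and under quantile normalization. It was 0 with no filter on low values and 5 with somite stage in the model. Over all genes, 63 were lower in the main fit, 44 with median-ratio scaling, 38 with quantile normalization and 267 with stage. With no filter 0 of 20946 genes were called in either direction, so every call ended there. With 1 library left out the number of members called lower moved in every fit, and so did the number of calls over all genes. Stage gave 1 response gene lower against 0 without it, and 2 coreceptor and heparan sulfate genes lower against 0, while leaving out 1 library gave 0 to 1. The counts of members called higher were 0 in all 14 fits. The median log2 fold change of the ridge ligands was -0.685 with a filter at 5 TPM, which leaves out Fgf4 and Fgf17. With 1 library left out it lay between -0.494 and -0.259, and that of the response genes between -0.231 and -0.0467. That of the mesenchymal ligands rests on 2 to 4 genes: -0.621 with that filter, -0.0826 with no filter, and between -0.142 and 0.199 with 1 library left out. That of the receptors was -0.195 with no filter, -0.321 with a pseudocount of 5, and between -0.448 and -0.33 with 1 library left out. The ratio of Fgf8 to ectoderm markers, knockout over control, lay between 0.525 and 0.678 with 1 library left out. Signs turned only in members that did not pass. Over the fits with 1 library left out the log2 fold change lay between -0.396 and 0.119 for Fgf4, -0.692 and 0.135 for Fgf9, -0.142 and 0.199 for Fgf10, -0.154 and 0.182 for Fgfr1, -0.459 and 0.0688 for Fgfr2, -0.433 and 0.018 for Dusp4, -0.346 and 0.166 for Dusp6, -0.309 and 0.185 for Il17rd and -0.0346 and 0.17 for Flrt2. Fgfr1 was -0.0109 under quantile normalization. The causes were not tested. A fit without 1 library assumes that the lone embryo of that genotype varies like the pair of the other. The fit with somite stage pairs 1 knockout with 1 control embryo by stage, since the labels give no replicate numbers. Its term for stage also takes up sex, which ran with stage. With 2 embryos per genotype and unknown depth, a member short of the threshold may still differ.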
